A study of Mus musculus with 6 samples.

Results

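The 76 genes described here encode proteins of the mitochondrial ribosome. They were chosen by name, as every gene whose single platform symbol is Mrpl or Mrps followed by digits and at most 1 letter, out of 18193 genes with a single symbol on the array. Of these, 47 carry the large subunit prefix (Mrpl) and 29 the small subunit prefix (Mrps). They were measured by 156 of the 45101 probe sets, and each gene was represented by its brightest probe set, that with the highest 6-array mean. All 76 had a mean above the median gene (7.48, log2), with means from 9.43 to 12.7.

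Mitochondria keep a small genome whose messenger RNAs encode subunits of the respiratory chain, and a ribosome of their own translates them. Its RNA comes from the mitochondrial genome, while all of its proteins are encoded in the nucleus, made in the cytosol and imported. The large subunit forms peptide bonds and holds the exit tunnel for the new chain, and the small subunit holds the messenger and reads its codons. The prefix follows gene naming and not always the structure: the products of Mrps18a and Mrps30 are placed in the large subunit, and that of Mrps36 is a subunit of the 2-oxoglutarate dehydrogenase complex.

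RNA came from mouse embryonic stem (ES) cells, on 1 Affymetrix array per sample, with 3 samples from lines labelled haploid (1 chromosome set) and 3 from diploid cells. The share of cells still haploid when RNA was taken is not given in the sources used here, and every difference below is between samples so labelled. The haploid samples were the lines HAP1 (replicate 1, passage 24) and HAP2 (replicate 2, passage 21), both of strain F1 CBAxB6, and HTG1 (replicate 3, passage 11), labelled mixed transgenic. The diploid samples were described as male, with strain 129Sv for replicates 1 and 2 and 129 for replicate 3, so that ploidy and strain cannot be told apart. Sex is stated here for the diploid samples alone, and its part in any difference was not tested. A passage number is given for the haploid samples alone, so whether passage also differed cannot be seen. All 6 were cultured in 2i medium, in which inhibitors of MEK and GSK3 hold ES cells in the naive state, and RNA was taken 2 days after passaging. The titles number the diploid samples as biological replicates without naming a line, so their spread may be partly technical, and p-values measure only the spread between these arrays. In RNA from a whole culture, fewer cells of a type and less RNA per cell cannot be told apart.

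Array medians lay between 6.31 and 6.34. All 8 ES cell markers were above the median gene, with means of at least 11.7. In the haploid samples 3 of them (Pou5f1, Nanog and Klf4) passed as higher and none as lower. Of those that did not pass, Utf1 (-0.63, groups not overlapping) and Zfp42 (-0.25) were lower. Tfcp2l1 (0.60) and Esrrb (0.29), with groups not overlapping, and Sox2 (0.09) were higher. The summed level of the 8 was 15.9 (log2) on all 3 diploid and 16.1 to 16.2 on the haploid arrays. None of the 6 primitive endoderm markers was above the median gene, and their sums overlapped (8.47 to 8.71 and 8.49 to 8.66). Of 6 fibroblast feeder markers none was above the median gene, but their summed level was 9.58 to 10.5 (log2) on the diploid and 8.34 to 8.79 on the haploid arrays. The collagen Col1a2 alone passed, as lower in the haploid samples (-2.62). Col3a1 (-2.02), Postn (-1.25) and Col1a1 (-0.54) were lower with groups not overlapping but did not pass. Lum (-0.71) and Thy1 (-0.03) did not pass either, and their groups overlapped. Of the 5 trophoblast markers 2 were above the median gene and 1, the keratin Krt8, fell (-2.21). Their summed level was 10.8 to 11.3 on the diploid and 9.44 to 9.81 on the haploid arrays. Krt8 was the brightest of them. Cdx2 (0.05), Elf5 (-0.04), Eomes (-0.07) and Hand1 (-0.11) did not pass and their groups overlapped, so the sum mostly follows Krt8. The beta-actin control sets gave 0.34 to 0.46 (log2, 3' value less 5' value) on the diploid and 0.18 to 0.24 on the haploid arrays, and the Gapdh sets overlapped (-0.09 to -0.0084 and -0.09 to -0.06). The ES, feeder and trophoblast sums and the beta-actin control moved with the groups compared below, and their part in any difference was not tested.

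The comparison sets samples labelled haploid against samples labelled diploid in 1 medium, and strain differs along the same split. Of the 76 ribosomal genes 63 did not pass, 11 were lower and 2 were higher in the haploid samples, and no change reached 2-fold. Not passing does not show that a gene was unchanged. The threshold was a Benjamini-Hochberg adjusted p of 0.05 in limma over all 18193 genes. Against 17.1% of the 76, 14.9% of all genes passed (6.96% lower and 7.92% higher), and 21.9% of the genes above the median level (9.21% lower and 12.7% higher). The total is therefore near the background, while lower calls made up 14.5% of the members and higher calls 2.63%. Both backgrounds hold X-linked genes. The 297 of these above the median level, none of them a member, had a median difference of 0.77 (log2). The median difference was -0.06 (log2) over the 76 genes, -0.03 over all genes and 0.04 over genes above the median level. The groups did not overlap for 43.4% of the members, against 37.9% of all genes (20.2% lower and 17.7% higher) and 47.5% of those above the median level.

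The large subunit held 47 of the 76 genes and 10 of the 13 calls. Of its 47 genes 8 fell, 2 rose and 37 did not pass, with a median difference of -0.13 (log2). Of the 29 small subunit genes 3 fell (10.3%), none rose and 26 did not pass, with a median of -0.0029. At an unadjusted p under 0.05 in limma 2 of the 29 were higher and 4 lower. Of the 47 large subunit genes 6 were then higher and 17 lower. At the same p 2799 of all 18193 genes were higher and 2873 lower. Of the 9096 genes above the median level 2106 were higher and 1612 lower. The difference between the subunits was not tested. Haploid and diploid values did not overlap for 57.4% of the large subunit genes (19 lower and 8 higher) and for 20.7% of the small subunit genes (5 lower and 1 higher). For genes above the median level this share was 47.5%.

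**Figure D1:**
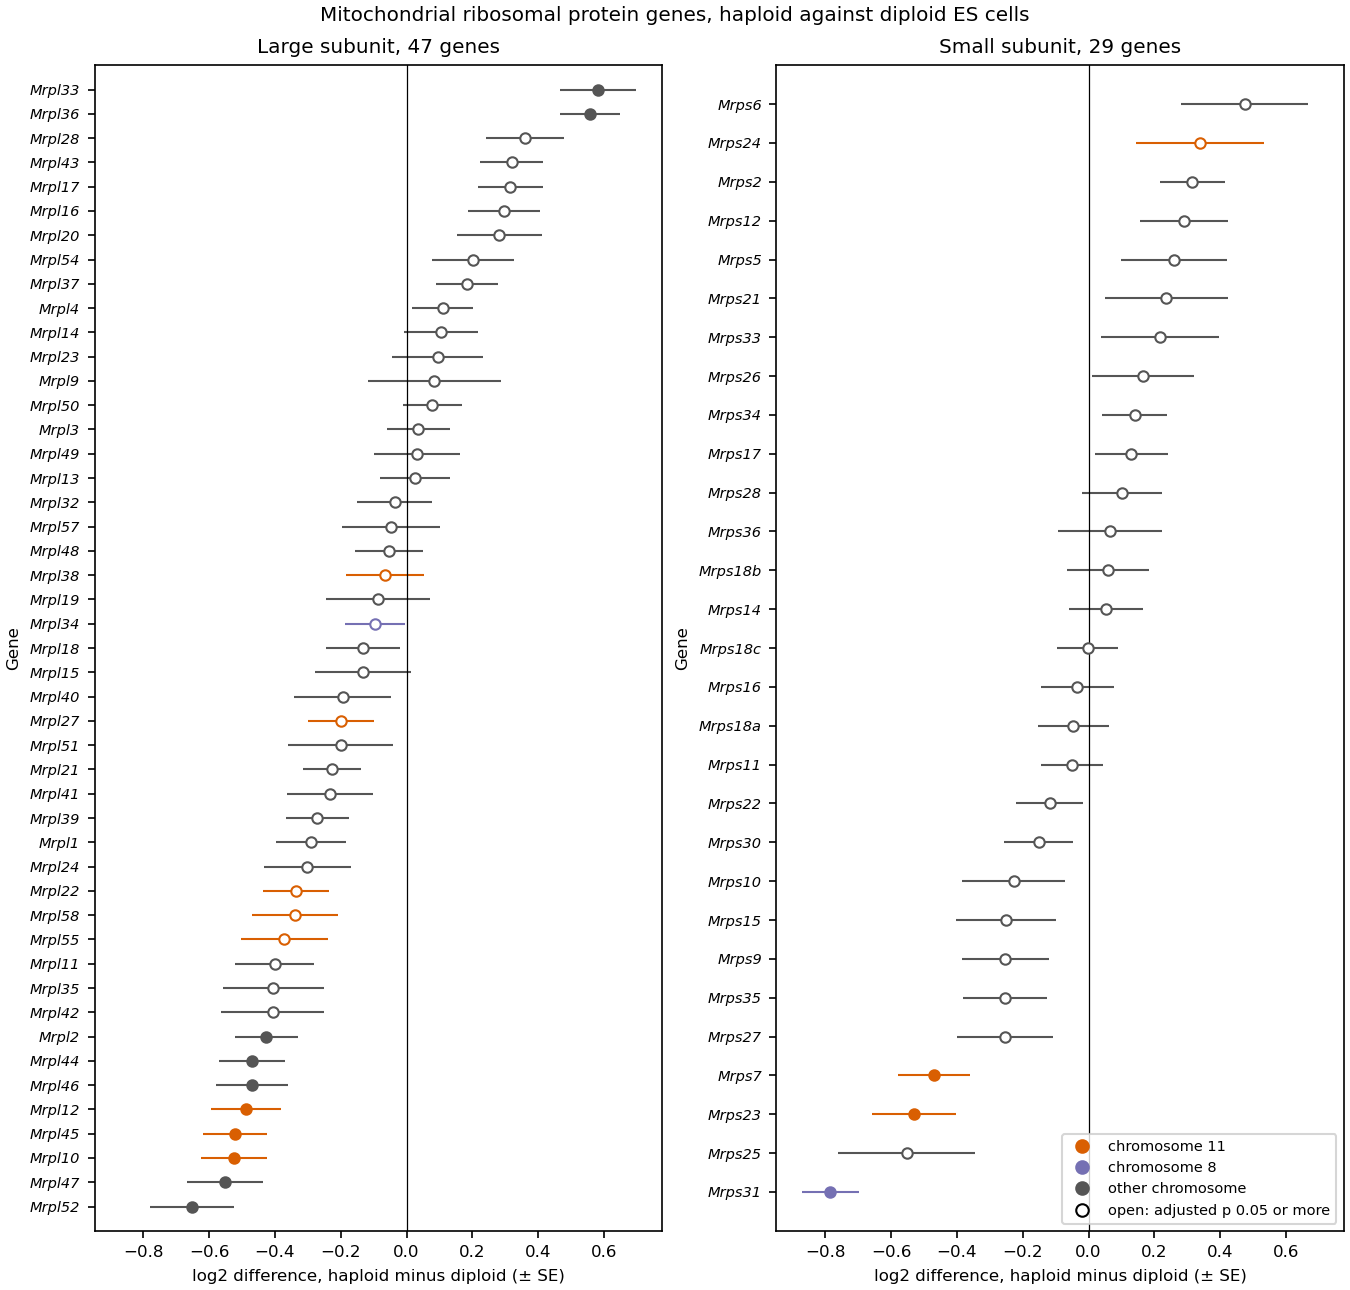
Log2 difference of each gene, haploid minus diploid (points, with the standard error of limma as bars, n = 3 arrays per group), large subunit on the left and small subunit on the right; filled points had an adjusted p under 0.05, orange marks chromosome 11 and purple chromosome 8. Differences run from -0.65 to 0.58 in the large and from -0.78 to 0.47 in the small subunit, and the 13 filled points are 11 to the left and 2 to the right of 0.

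The member with the largest change was Mrps31, a mitochondria-specific protein of the small subunit. It stood at 11.01, 10.996 and 11.10 (log2) on the 3 diploid arrays and at 10.22, 10.27 and 10.27 on the 3 haploid arrays, each group closely packed and far from the other. It fell by 0.78 ± 0.09 (log2, SE, n = 3 per group), or 1.72-fold (adjusted p = 0.00319), and passed without any 1 array (0.00894 to 0.0227). A second, dim probe set (mean 6.36) differed by 0.13 and did not pass.

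Mrpl10 and Mrpl12, whose products belong to the stalk that recruits translation factors, both fell, and both genes are on chromosome 11. Mrpl10, the stalk base, was at 11.56, 11.31 and 11.37 (log2) on the diploid arrays and at 10.93, 10.92 and 10.83 on the haploid arrays, and fell 1.44-fold (-0.52 ± 0.10, SE, adjusted p = 0.018). Mrpl12, which binds the base and also the mitochondrial RNA polymerase, was at 12.06, 11.94 and 12.06 on the diploid and 11.69, 11.43 and 11.47 on the haploid arrays, and fell 1.40-fold (-0.49 ± 0.11, adjusted p = 0.026). Neither gene had overlapping groups, and each has 1 probe set. Leaving out 1 array gave an adjusted p of 0.0344 to 0.064 for Mrpl10, which missed the threshold without diploid replicate 3 or haploid replicate 2. For Mrpl12 the range was 0.0224 to 0.0978, and it passed only without haploid replicate 1. Chromosome 11 was lower as a whole, as described below. With the median shift of its genes above the median level subtracted, Mrpl10 differed by -0.26 and Mrpl12 by -0.22. Neither then passed in limma (adjusted p = 0.125 and 0.188).

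Mrpl45, which tethers the ribosome to the inner membrane, and Mrpl47, a protein beside the mouth of the exit tunnel, also fell. They are given because they passed, and the proteins around the tunnel were not compared as a set. Mrpl45 stood at 12.28, 12.32 and 12.44 (log2) on the diploid arrays and 11.92, 11.81 and 11.74 on the haploid arrays, a fall of 1.44-fold (-0.52 ± 0.10, adjusted p = 0.0161). Mrpl47 stood at 11.75, 11.87 and 12.05 on the diploid and 11.45, 11.34 and 11.22 on the haploid arrays, a fall of 1.47-fold (-0.55 ± 0.12, adjusted p = 0.0227). It was the only member with probe sets past the threshold in opposite directions: a dim set (mean 5.07) was higher by 0.73 in the haploid samples, and averaging its 3 probe sets gave a difference of 0.0006 (adjusted p = 0.998). Without 1 array the adjusted p of Mrpl45 was 0.024 to 0.0696, missed without diploid replicate 2 or 3 or haploid replicate 2, and that of Mrpl47 was 0.0275 to 0.0835, missed also without haploid replicate 3.

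Further decreases lay elsewhere in the large subunit. Mrpl2, which lies next to the peptidyl transferase centre, was at 12.16, 12.14 and 12.24 (log2) on the diploid and 11.77, 11.86 and 11.65 on the haploid arrays (-0.43 ± 0.10, adjusted p = 0.0293), but it did not pass without any 1 array (0.0538 to 0.107). Mrpl46, a mitochondria-specific protein, was at 10.55, 10.69 and 10.86 on the diploid and 10.23, 10.31 and 10.15 on the haploid arrays (-0.47 ± 0.11, adjusted p = 0.0327); it passed without diploid replicate 1 but not without any other array (0.03 to 0.108).

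In Mrpl52 and Mrpl44 the call rested on 1 of several bright probe sets. Mrpl52, mitochondria-specific as well, was at 12.16, 11.95 and 11.94 on the diploid and 11.52, 11.43 and 11.15 on the haploid arrays by its brightest set (-0.65 ± 0.13, adjusted p = 0.0193). Its next probe sets, with means of 10.9 and 10.4, differed by -0.07 and -0.05. Mrpl44, which has a fold like that of ribonuclease III, was at 10.74, 10.91 and 10.97 on the diploid and 10.40, 10.35 and 10.48 on the haploid arrays (-0.47 ± 0.10, adjusted p = 0.0241). Its other bright sets differed by -0.20, -0.01 and 0.16. Averaged over all their probe sets, Mrpl52 differed by -0.16 and Mrpl44 by -0.13 (adjusted p = 0.304 and 0.29), and neither passed. Without 1 array the adjusted p was 0.0234 to 0.0624 for Mrpl52, missed without diploid replicate 2 or 3 or haploid replicate 2, and 0.0234 to 0.0939 for Mrpl44, missed also without haploid replicate 1.

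Among the small subunit, Mrps7 and Mrps23 also fell. Mrps7, a protein of the head that contacts transfer RNA, was at 10.89, 10.98 and 10.98 (log2) on the diploid and 10.63, 10.51 and 10.31 on the haploid arrays (-0.47 ± 0.11, adjusted p = 0.0318). Mrps23 was at 10.99, 10.79 and 10.88 on the diploid and 10.59, 10.28 and 10.21 on the haploid arrays (-0.53 ± 0.13, adjusted p = 0.0354); its second bright probe set differed by -0.17 and did not pass, and averaging all its sets gave -0.31 (adjusted p = 0.0929). The haploid values of both genes were below every diploid value. Both passed when haploid replicate 1 was left out and missed when any of the other arrays was, with an adjusted p of 0.0315 to 0.109 for Mrps7 and 0.0188 to 0.111 for Mrps23.

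The 2 increases were in small proteins of the large subunit. Mrpl36 was at 9.92, 9.75 and 9.84 (log2) on the diploid and 10.36, 10.38 and 10.44 on the haploid arrays. It rose 1.47-fold (0.56 ± 0.09, adjusted p = 0.0105) and passed without any 1 array (0.0171 to 0.0488). Mrpl33 was at 10.01, 9.68 and 9.84 on the diploid and 10.53, 10.39 and 10.36 on the haploid arrays, and rose 1.5-fold (0.58 ± 0.12, adjusted p = 0.0196). Without 1 array its adjusted p was 0.0184 to 0.0764, missed without diploid replicate 2 or 3 or haploid replicate 2, and averaging it with a dim probe set (mean 4.71) gave 0.23 (adjusted p = 0.121). A further 6 members had an adjusted p between 0.05 and 0.1, of which 4 were higher (Mrpl17, Mrpl28, Mrpl43 and Mrps2, by 0.32 to 0.36) and 2 lower (Mrpl11 by -0.40 and Mrpl22 by -0.34) in the haploid samples. In limma over probe sets, a second set of Mrps2 (mean 10.0) passed as higher (0.50, adjusted p = 0.0191). For Mrpl11, sets with means of 10.8 and 9.32 passed as lower (-0.66 and -0.49, adjusted p = 0.0299 and 0.0224). The other sets of Mrpl28 (0.30 and 0.31) did not pass.

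Size alone did not make a call. Mrps25 was at 11.15, 10.43 and 10.65 (log2) on the diploid and 10.36, 10.29 and 9.91 on the haploid arrays. Its groups did not overlap, but diploid replicate 1 stood well above the other two, and the difference of -0.55 ± 0.21 did not pass (adjusted p = 0.122). Mrps6 was at 10.63, 9.92 and 9.96 on the diploid and 10.74, 10.57 and 10.62 on the haploid arrays, with diploid replicate 1 again high and above 2 of the haploid values (0.47 ± 0.19, adjusted p = 0.148). In a second bright set of Mrps6 (mean 9.49) the groups did not overlap. It was higher by 0.55 ± 0.16 and did not pass in limma over probe sets (adjusted p = 0.068).

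**Figure D2:**
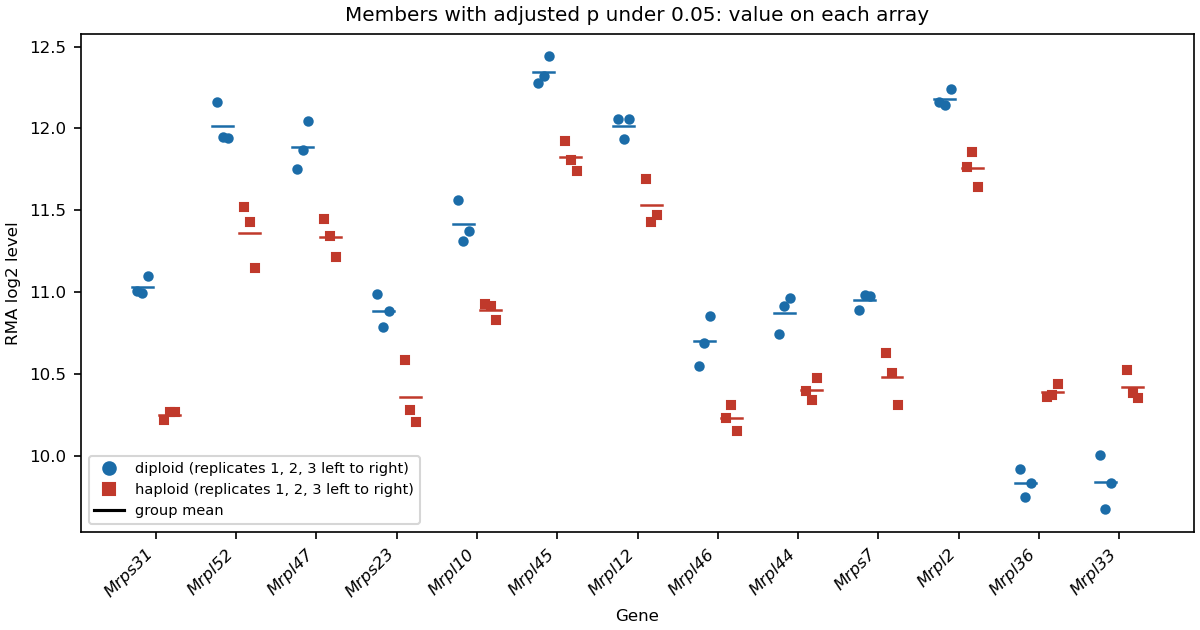
RMA log2 level (y axis) of the 13 members with an adjusted p under 0.05 on each array, diploid as circles and haploid as squares, replicates 1 to 3 from left to right, with the group mean as a line; levels of different genes are not comparable. In all 13 genes the groups are apart, Mrps31 has the widest gap, and Mrpl36 and Mrpl33 are the genes with the haploid values on top.

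The count of calls depended on single arrays. It was 10, 3 and 2 of the 76 members without diploid replicates 1, 2 and 3, and 12, 2 and 7 without haploid replicates 1, 2 and 3. Over all genes the share that passed was then 13%, 6.57%, 5.33%, 13.3%, 7.85% and 11%. Of the 13 called members, Mrps31 and Mrpl36 alone passed in all 6 of these fits.

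Several members stood at nearly the same level in both groups. Mrps18a, Mrps18b and Mrps18c are paralogs that descend from 1 bacterial ribosomal protein. Mrps18c was at 11.70, 11.72 and 11.79 (log2) on the diploid and 11.78, 11.78 and 11.63 on the haploid arrays (-0.0029 ± 0.09). The differences were -0.05 ± 0.11 for Mrps18a and 0.06 ± 0.12 for Mrps18b, and their groups overlapped as well. The next closest to 0 were Mrpl13 (0.03), Mrpl49 (0.03), Mrpl32 (-0.04), which is matured by a mitochondrial protease, and Mrps16 (-0.03). Mrps36 was at 10.74, 10.50 and 10.42 on the diploid and 10.87, 10.64 and 10.34 on the haploid arrays (0.06 ± 0.16). Mrps12, at the decoding centre, differed by 0.29 ± 0.13 (adjusted p = 0.191). The number of arrays limited what small changes could show: the median standard error over the 76 genes was 0.12 (log2) and the smallest change that passed was 0.43.

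Of the 11 decreases, 6 were in genes on chromosomes 8 and 11. Chromosome 11 held 11 of the 76 genes, more than any other chromosome, and chromosome 8 held 2; none was X-linked. Of the 11 on chromosome 11, 10 were lower by the group means and 5 passed as lower (Mrpl10, Mrpl12, Mrpl45, Mrps7 and Mrps23), with a median of -0.37 (log2). This chromosome was lower as a whole: of its 792 genes above the median level 30.2% passed as lower and the median was -0.27. On chromosome 8 Mrps31 passed and Mrpl34 did not (-0.10), beside 32.9% of 505 genes passing as lower with a median of -0.32. All 3 small subunit calls thus came from these 2 chromosomes. Of the 25 small subunit genes elsewhere none passed, with a median of 0.05. At an unadjusted p under 0.05 in limma 2 of the 25 were higher and 1 lower. Of the 7799 genes above the median level elsewhere, X-linked genes included, 2028 were higher and 982 lower at that p.

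The exception on chromosome 11 was Mrps24, at 11.94, 11.66 and 11.84 (log2) on the diploid and 12.13, 12.55 and 11.78 on the haploid arrays, where the groups overlapped (0.34 ± 0.19, adjusted p = 0.281). This holds for its brightest probe set alone: the other bright set (mean 11.17) differed by -0.01 ± 0.23. When the median shift of each chromosome's genes above the median level was subtracted, a choice made after the values were seen, the 5 genes on chromosome 11 differed by -0.26 to -0.20 and did not pass (adjusted p = 0.117 to 0.233). Mrps31 then differed by -0.47 (adjusted p = 0.016) and still passed. The 7 calls on other chromosomes (Mrpl2, Mrpl44, Mrpl46, Mrpl47 and Mrpl52 lower, Mrpl33 and Mrpl36 higher) all passed as well. Another 2 genes came to pass as lower, Mrpl11 (-0.46, adjusted p = 0.0464) and Mrpl39 (-0.37, adjusted p = 0.043), so that 10 members were called in all. Of the 63 members on chromosomes other than 8 and 11, 7.94% were lower and 3.17% higher past the threshold. Of the 7799 genes above the median level off these chromosomes the shares were 5.55% and 14.4%. That set holds the 63 members and also the X-linked genes. The 297 X-linked genes above the median level had a median of 0.77, and 0.67% passed as lower, while no autosome's median was above 0.13. Their part in the 14.4% was not tested.

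**Figure D3:**
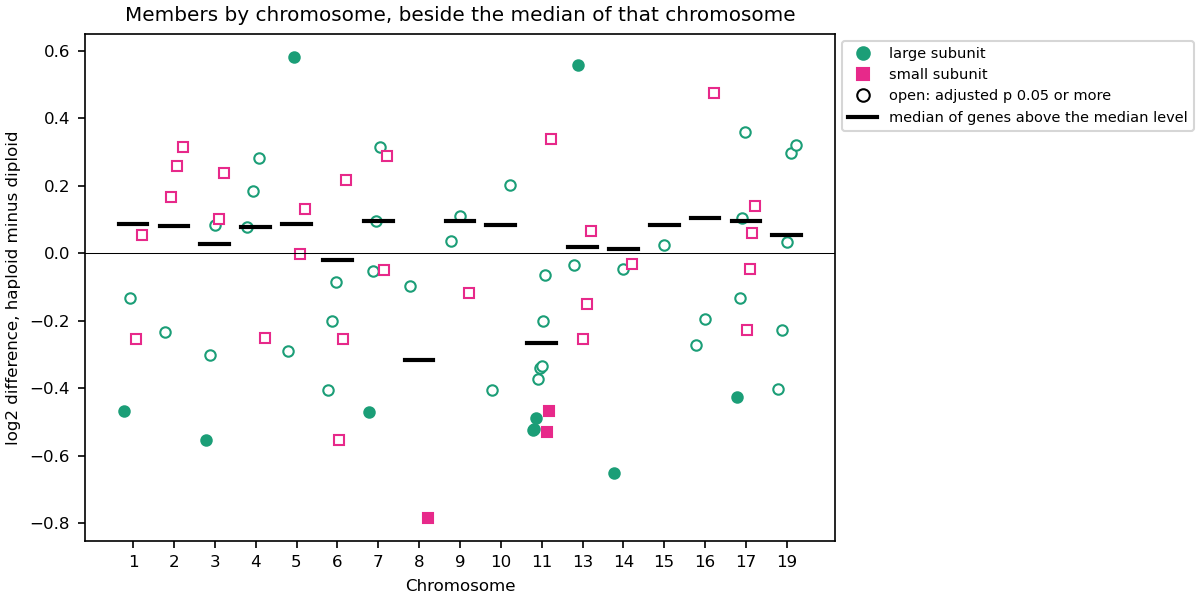
Log2 difference of each member (points; circles large subunit, squares small subunit, filled where the adjusted p was under 0.05) by chromosome, with the median difference of all genes above the median level on that chromosome as a bar. The bars of chromosomes 8 (-0.32) and 11 (-0.27) lie well below those of the others, and 6 of the 11 filled points below 0 are on these 2 chromosomes.

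The members also differed between samples of 1 group. With each gene centred over the 6 arrays, the median of the large subunit genes was 0.12, -0.03 and 0.05 (log2) on the diploid arrays and 0.01, -0.02 and -0.16 on the haploid arrays. For the small subunit genes it was 0.10, -0.07 and 0.06 on the diploid and 0.07, 0.05 and -0.15 on the haploid arrays. Both subunits were thus lowest on haploid replicate 3, the transgenic line HTG1. There 59 of the 76 genes (77.6%) were below both other haploid samples, against 39% of the 9096 genes above the median level, and the median gap to the mean of HAP1 and HAP2 was -0.17, against -0.0066. As 1 sample it has no replicate, and this contrast was not tested. For both subunits the array medians of the groups overlapped: their mean was 0.05 ± 0.07 (SD, n = 3) in the diploid and -0.06 ± 0.09 in the haploid samples for the large subunit, and 0.03 ± 0.09 and -0.01 ± 0.12 for the small subunit. Without haploid replicate 3 the median difference was -0.08 for the large and 0.05 for the small subunit genes, and without diploid replicate 1 it was -0.046 for the large subunit genes.

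**Figure D4:**
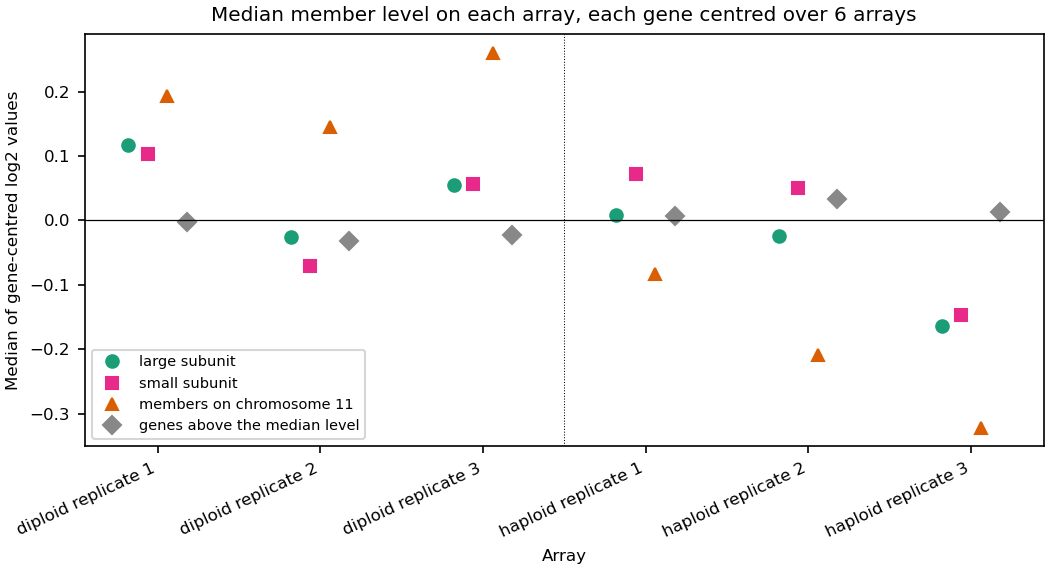
Median over genes of the log2 level, each gene centred over the 6 arrays (y axis), on each array (x axis), for the large subunit, the small subunit, the 11 members on chromosome 11 and all genes above the median level. Members on chromosome 11 are at 0.14 to 0.26 on the diploid and at -0.32 to -0.08 on the haploid arrays, while both subunits overlap between groups and are lowest on haploid replicate 3.

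Mitochondrial ribosomal protein genes are known to be read from promoters without a TATA box that often bind NRF1, the ETS factor GABP and YY1. RefSeq promoter windows (build GRCm38.p6, 250 bases before to 50 after the annotated start) were found for 67 of the 76 genes, 73 windows in all, and searched on both strands for the NRF1 core GCGCANGCG, the GABP site CCGGAAGT and the YY1 site AAGATGGCG, whose letters were chosen from textbook sites. The NRF1 core was in 20.5% of the members' windows, against 6.25% of all 32851 windows and 14.8% of the windows of genes above the median level. The GABP site was in 16.4%, against 3.89% and 8.91%. The YY1 site was in 11% of the members' windows, against 1.40% and 3.44%. By gene, the NRF1 core was near 4 of the 11 members that fell and 11 of the 54 with a window that did not pass, GABP near 1 and 10, and YY1 near 0 and 7. A match is only a run of letters, and none says only that these letters are not in the window.

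To show the promoters behind the largest called change in each direction and subunit, together with Mrpl36, which was added because it passed in every fit, 200 bases of each window are given 5′ to 3′, from 170 before to 30 after the start, with matches to the motifs in capitals. Mrpl52 (chr14:54426739-54426938, plus strand) and Mrpl33 (chr5:31613781-31613980, plus strand) hold a GABP match at the start, although 1 fell and the other rose. Mrpl36 (chr13:73330839-73331038, plus strand) holds a YY1 match just before the start. Mrps31 (chr8:22411170-22411369, plus strand) holds none of these letters.
Mrpl52: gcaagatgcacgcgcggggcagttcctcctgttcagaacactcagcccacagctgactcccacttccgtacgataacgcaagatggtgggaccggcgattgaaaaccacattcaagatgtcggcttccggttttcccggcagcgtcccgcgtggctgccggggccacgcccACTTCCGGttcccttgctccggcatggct
Mrps31: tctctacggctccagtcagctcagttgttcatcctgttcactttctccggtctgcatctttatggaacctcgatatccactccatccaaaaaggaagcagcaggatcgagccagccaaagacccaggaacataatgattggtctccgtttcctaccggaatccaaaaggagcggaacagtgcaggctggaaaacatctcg
Mrpl33: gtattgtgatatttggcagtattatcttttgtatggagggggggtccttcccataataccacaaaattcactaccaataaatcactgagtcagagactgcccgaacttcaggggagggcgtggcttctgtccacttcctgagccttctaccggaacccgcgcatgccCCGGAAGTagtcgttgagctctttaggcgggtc
Mrpl36: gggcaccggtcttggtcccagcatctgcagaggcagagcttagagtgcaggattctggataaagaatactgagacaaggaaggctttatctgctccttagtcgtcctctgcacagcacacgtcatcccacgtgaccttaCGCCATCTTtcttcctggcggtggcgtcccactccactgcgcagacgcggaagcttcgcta

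Genes that build or serve this ribosome, or charge its transfer RNAs, were taken from 5 lists. Of their 85 measured genes, 10 fell and 3 rose (15.3% past the threshold), with a median of -0.07 (log2). Of all genes 14.9% passed, and 21.9% of those above the median level. Lower calls made up 11.8% and higher calls 3.53% of the 85, against 6.96% and 7.92% of all genes. Among genes above the median level, X-linked genes included, these shares were 9.21% and 12.7%. Again 6 of the 10 decreases came from the 12 genes on chromosomes 8 (Cars2, Gtpbp3 and Spg7) and 11 (Eral1, Elac2 and Mtif2). Of the 1297 genes above the median level on these 2 chromosomes 31.2% passed as lower. Without those 12 genes, 4 fell and 3 rose of 73, with a median of -0.0091. Of the 13 calls among the 85 genes, 5 passed without any 1 array: Cars2, Eral1, Spg7, Polrmt and Gabpb1.

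None of the 5 mitoribosome proteins that carry other names passed in limma (1 was lower and none higher at an unadjusted p under 0.05). Dap3, a small subunit GTP-binding protein, differed by -0.06 and Chchd1 by -0.19. Of 14 translation factor and transfer RNA modification genes, 2 fell and 1 rose. These calls made up 21.4% of the 14, against 14.9% of all genes and 21.9% of those above the median level. Mtif2, the initiation factor that places the first transfer RNA, was at 10.95, 10.96 and 10.97 on the diploid and 10.25, 10.44 and 10.07 on the haploid arrays and fell 1.63-fold (-0.71 ± 0.12, adjusted p = 0.0105; 0.0504 without diploid replicate 3). Gtpbp3, which modifies transfer RNA, fell by 0.53 (adjusted p = 0.0448) but did not pass when its probe sets were averaged (-0.23, adjusted p = 0.112), and without 1 array it passed only when that was haploid replicate 2 (adjusted p = 0.0397 to 0.107); it also missed with either chromosome shift subtracted (0.157 and 0.309). The release factor Mtrf1l rose 1.75-fold (adjusted p = 0.0138), and missed without diploid replicate 2 or 3 (highest adjusted p = 0.0645).

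Of 19 genes that charge mitochondrial transfer RNAs, 3 fell and 1 rose. That is 21.1% past the threshold, against 14.9% of all genes and 21.9% of those above the median level. The synthetase Cars2 fell 1.69-fold (-0.75 ± 0.11, adjusted p = 0.00664), Rars2 1.31-fold (adjusted p = 0.0277) and Gatb, a subunit of the glutamine-forming amidotransferase, 1.42-fold (adjusted p = 0.0397). With 1 array left out Rars2 passed only without diploid replicate 1 (0.0423 to 0.103) and Gatb only without haploid replicate 1 (0.0377 to 0.134). Gatb also missed when the median shift of all genes of its chromosome was subtracted (adjusted p = 0.0562). Lars2 rose 1.47-fold by its brightest probe set, while the average of its sets differed by -0.14 (adjusted p = 0.288); by the brightest set it missed without diploid replicate 2 or 3 or haploid replicate 2 (highest adjusted p = 0.0721).

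Of 26 assembly and rRNA modification genes 3 fell (11.5%) and none rose in limma. In either direction 14.9% of all genes passed, and 21.9% of those above the median level. At an unadjusted p under 0.05 in limma none of the 26 rose either, and 9 were lower. At that unadjusted p 2873 of all 18193 genes were lower and 2799 higher. Of the 9096 genes above the median level 1612 were lower and 2106 higher. Some of the 9, among them Eral1 and Spg7, are on chromosomes 11 and 8, which were lower as a whole. Eral1, a GTPase that binds the RNA of the small subunit, fell by 0.73, the protease subunit Spg7 by 0.73, and Gtpbp10, a GTPase of large subunit assembly, by 0.55 (log2, adjusted p = 0.00543, 0.005 and 0.0204). Gtpbp10 missed without diploid replicate 2 or 3 (highest adjusted p = 0.0826). Without probe sets whose names mark several transcripts, Eral1 differed by -0.01 and Spg7 by -0.16, and neither passed (adjusted p = 0.966 and 0.281).

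Of 21 genes of mitochondrial transcription and its regulators 2 fell and 1 rose. This share of 14.3% stood beside 14.9% of all genes and 21.9% of those above the median level. The mitochondrial RNA polymerase Polrmt was at 9.93, 9.67 and 9.73 (log2) on the diploid and 9.12, 9.17 and 9.23 on the haploid arrays and fell 1.52-fold (-0.60 ± 0.10, adjusted p = 0.0121). Elac2, which trims the 3' ends of transfer RNAs, fell 1.43-fold (adjusted p = 0.0126), and missed without diploid replicate 2 or 3 (highest adjusted p = 0.059) or with the chromosome shift of genes above the median level subtracted (0.0992). Gabpb1, a subunit of GABP, rose 1.47-fold (adjusted p = 0.00955), but the average of its probe sets differed by 0.26 and did not pass (adjusted p = 0.203). The other subunit of GABP, Gabpa (0.08), Nrf1 (0.20) and the mitochondrial DNA-packaging factor Tfam (0.19, log2) did not pass.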

How the data were processed

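The deposited table holds log2 values per probe set and array, made by the authors with RMA per the submitters' processing notes; its software and settings are not given in the sources used here. RMA sets arrays to 1 distribution, so a change in total RNA cannot be seen. Of 45101 probe sets, 64 controls were left out, 932 had several platform symbols, 9160 had none, and the 34945 with 1 symbol were used. Among the unused were 4 that name a mitochondrial ribosomal gene beside another gene. Chromosomes came from RefSeq (GRCm38.p6) through Entrez numbers, for all 76 members.

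The haploid and diploid arrays (n = 3 each) were fitted over all 18193 genes in limma 3.58.1 (lmFit and eBayes, R 4.3.3), two-sided and without covariates, with Benjamini-Hochberg adjustment at 0.05. SE is the moderated standard error. The fit was tested on simulated data. The members and lists were chosen with earlier results of these data known. Named were all members that passed, the 3 of each subunit closest to 0, the Mrps18 paralogs, Mrpl10, Mrpl12, Mrps12 and Mrps36, and up to 4 passing genes of each list, or the 2 brightest where none passed. Mrpl11, Mrpl17, Mrpl22, Mrpl28, Mrpl34, Mrpl39, Mrpl43, Mrps2, Mrps6, Mrps24, Mrps25, Gabpa, Nrf1 and Tfam were named after their values were seen. The alternatives are named with their effect in the closing section.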

Additional observations from a re-analysis of the deposited data

How the results depend on the processing

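No paired analysis was possible because the labels name the haploid samples by line and passage, so their replicate numbers follow accession order and tie no sample to a diploid one. A repeated quantile normalization, aligned array medians and a fit on genes above the median level kept the call of each of the 37 named genes run through them and the direction of those that passed. Mrpl13 (-0.01 and -0.03) and Mrpl49 (-0.0017 and -0.03), which did not pass, turned sign under the first and the second, and Mrps18b under the second (-0.0013). The median of the other mitochondrial translation genes moved from -0.07 to -0.15 and -0.13 (log2) under the first and the second. Averaging a gene's probe sets left 1 large subunit gene higher (of 2), 1 small subunit gene higher (of none) and 1 other gene higher (of 3); it reversed Mrpl47 (0.0006) and Lars2 (-0.14), and neither passed. Without probe sets ending in _x_at, _s_at or _a_at, fewer genes were tested: the large subunit median was -0.041, 1 small subunit gene was lower (of 3) and the median of the other genes was -0.023. Trend and robust eBayes called 4 large subunit genes higher, and array weights 5 large and 1 small subunit gene higher and 16 other genes lower. With the median shift of all genes of each chromosome subtracted, 5 large and 1 small subunit gene were lower. At 2-fold or more, 0 genes of any of the lists passed in either direction. Among alternatives chosen after seeing the data, subtracting the shift of genes above the median level left 1 small subunit gene lower, made Mrpl11 and Mrpl39 pass, and gave the other genes a median of -0.10. Not counting genes on chromosomes 8 and 11 left 5 large and 0 small subunit genes and 4 other genes lower, the last with a median of -0.0091.

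Leaving out 1 array gave 1 to 2 large subunit genes higher and 0 to 7 lower (0 without diploid replicate 3 or haploid replicate 2), with a median of -0.19 to -0.046. It gave 0 to 1 small subunit genes higher and 1 to 3 lower, with a median of -0.06 to 0.05, and 1 to 4 other genes higher and 4 to 12 lower, with a median of -0.11 to -0.049. The small subunit median took either sign across these settings. Beyond the fewer probe sets or arrays that enter some of these fits, the cause of the changes was not tested. The smallest member difference that passed was 0.43, and the number of arrays limits what smaller ones could show.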
